A study of Rattus norvegicus with 46 samples.

Results

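Extracellular matrix and smooth muscle genes were read in the top and bottom of the duodenal villi of rats with different iron supplies. The set was a fixed list of 46 gene symbols, and each gene was read from the brightest of its probe sets that carry 1 symbol. All 46 genes had such a probe set and passed the filter on dim probe sets, among 14217 genes and 31042 probe sets on the array. Of these genes, 22 had 1 probe set, 22 had 2 and 2 had 4. The 46 genes were 5 fibrillar collagens, 4 basement membrane and associated collagens, 4 beaded-filament and fibril-associated collagens, 6 adhesive and matricellular proteins, 5 elastic fibre and microfibril proteins, 5 small proteoglycans and dermatopontin, 6 matrix enzymes and inhibitors, vimentin, and 10 genes of the smooth muscle contractile apparatus and cytoskeleton.

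RNA came from cryostat sections of the duodenum just past the stomach, cut across the crypt-villus axis, and the villus top and villus bottom sections were pooled apart for each rat. The Wistar rats (++) were 1 month old and formed 3 groups. Control rats (4) ate a normal diet. Iron-deficient rats (4) ate a low iron diet for 4 weeks and lost 2 to 3 ml of blood every 3 days. Iron-repleted rats (3) were treated in the same way until, for their last 3 days, ferric ammonium citrate (50 µM) was put in the drinking water, so this group shares the low iron diet and the bleeding with the deficient one. Belgrade rats (bb), known to carry a mutation of the iron transporter gene Slc11a2 in every cell, were on a Wistar background, and no age was given for them. They ate a normal diet (4 rats), or were fed iron for 3 days (4 rats) or for 6 days (3 rats) before death. All were fasted overnight. Lower and upper crypt arrays came from 1 further ++ rat studied separately, with no diet or age given for it.

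The connective tissue core of a villus, the lamina propria, holds fibroblasts, blood vessels, a central lymph vessel and thin strands of smooth muscle. Below the crypts lies the muscularis mucosae, a sheet of smooth muscle, with the submucosa and the thick outer muscle layers with their nerve plexuses beneath it. Fibrillar collagens give such tissue its tensile strength, type IV collagen builds the basement membrane under the epithelium and around vessels, and elastic fibres let it recoil. Fibroblasts make most of the collagen, while alpha and gamma smooth muscle actin (Acta2, Actg2), smooth muscle myosin (Myh11), desmin (Des) and transgelin (Tagln) belong to contractile cells. An array of a section measures all its cells together, so that fewer cells of a type and less RNA per cell cannot be told apart.

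The arrays had median intensities of 597 to 1179 in the villus and 643 to 672 in the crypt. Levels below are log2 normalized intensities, differences are log2 differences, and values of single rats are given in the order of their numbers, to 2 decimals, where a whole number stands for one that ends in zeros. Levels of different genes come from different probes and are not set against each other. Almost the same values were found in control rats 1 and 2, and likewise in rats 1 and 2 of the Belgrade group on a normal diet, so each pair was counted as 1 sample, which left 20 counted samples from 22 rats (3, 4, 3, 3, 4 and 3 in the order of the groups above). Enterocyte markers had a mean level of 16.44 to 17.25 in the top arrays and 12.77 to 15.91 in the bottom arrays, and crypt and cell cycle markers 9.50 to 11.38 and 12.18 to 13.26. Both segments thus carried the epithelial markers of duodenum, and the bottom arrays carried crypt RNA as well. Exocrine pancreas markers reached 15.90 in the bottom array of deficient rat 1, against a median of 8.34, and correlated with the smooth muscle members at r = -0.14 over the 22 bottom arrays.

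The bottom arrays of control rat 3 and repleted rat 3 stood apart in smooth muscle content. The mean level of the 10 smooth muscle members over the 22 bottom arrays ran from 11.68 in Belgrade rat 2 through a median of 12.87 to 16.12 in repleted rat 3, and in the top arrays only from 11.16 to 12.18. For 22 other smooth muscle genes, such as Tpm1, Mylk, Actn1 and Flna, it ran from 10.81 to 13.91 in the bottom arrays. For enteric nerve and glia markers it ran from 8.53 to 11.52. All 3 lists were highest in repleted rat 3, where the enterocyte markers were lowest, at 12.77. Of the 46 members, 28 had their highest bottom level in repleted rat 3 and 13 in control rat 3. Across the 22 bottom arrays the smooth muscle members correlated with the other smooth muscle genes at r = 0.97, with nerve and glia markers at r = 0.88 and with enterocyte markers at r = -0.86. These are descriptions across arrays that share the normalization, in which a larger share of one tissue lowers the others.

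**Figure D1:**
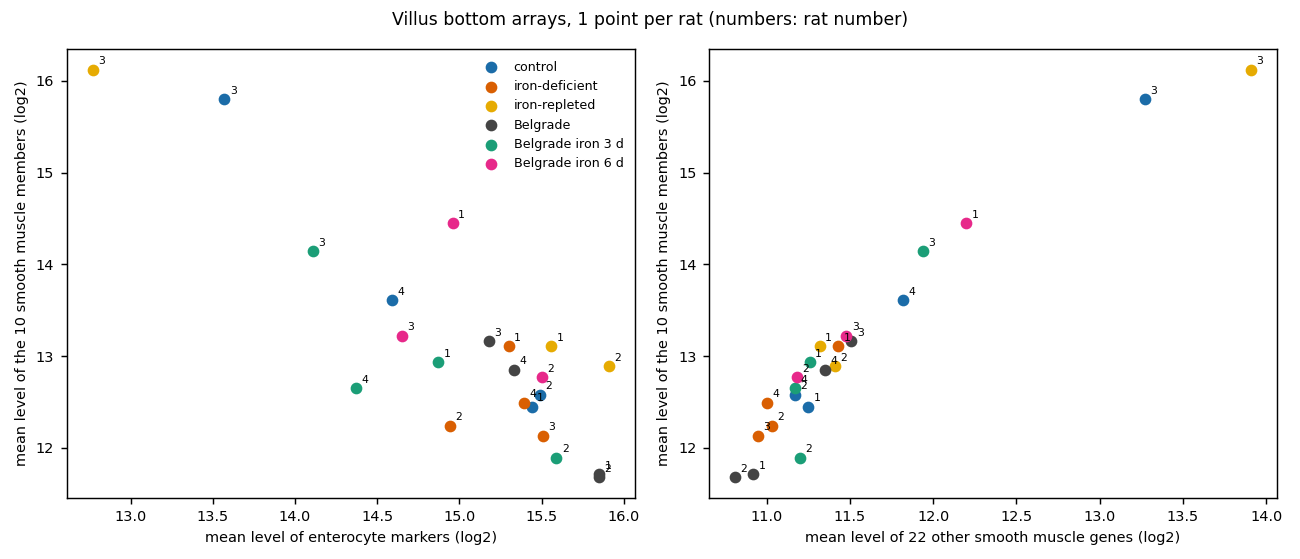
Mean log2 level of the 10 smooth muscle members in each villus bottom array (y axis) against the mean log2 level of enterocyte markers (left) and of 22 other smooth muscle genes (right), 1 point per rat, coloured by group and numbered by rat. Repleted rat 3 and control rat 3 lie highest in both panels, and repleted rat 3 has the lowest enterocyte level, 12.77.

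Smooth muscle genes were lower at the villus top than at the bottom. Of the 10 members, 9 fell from bottom to top in limma (Benjamini-Hochberg adjusted p under 0.05 over 26517 probe sets), with a median difference of -1.52, against 0.02 for all probe sets. Over all 46 members 28 passed, 6 higher and 22 lower at the top, beside 54.2% of all probe sets (25.5% higher, 28.8% lower), so the share of members past the test was close to that of the array. The median over the members was -0.50. With the values as deposited the split was 3 higher and 25 lower. Without each counted sample in turn, 26 to 32 members passed.

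Actg2, the gamma actin of visceral smooth muscle, stood at the bottom at 13.77, 13.66, 17.05 and 15.13 in control rats, 15.02, 13.74, 13.14 and 13.56 in deficient rats and 14.58, 13.35 and 16.94 in repleted rats. In Belgrade rats Actg2 stood at the bottom at 12.28, 12.40, 14.74 and 14.11 on a normal diet, 14.71, 12.57, 16.06 and 13.47 after 3 days of iron and 15.93, 14.11 and 14.83 after 6 days. At the top, Actg2 was at 12.30, 12.16, 12.57 and 12.08 in control rats, 12.61, 12.20, 12.30 and 12.17 in deficient rats and 12.13, 12.57 and 11.55 in repleted rats. The rats numbered 3 of the control, repleted and 3-day groups had the highest bottom values beside 6-day rat 1, while the top values of the Wistar groups overlapped. Belgrade rats had top values of Actg2 of 12.52, 12.46, 12.44 and 12.11 on a normal diet, 11.91, 12.55, 12.10 and 11.43 after 3 days of iron and 12.85, 12.60 and 12.89 after 6 days. Top and bottom overlapped only through the bottom arrays of rats 1 and 2 of the normal-diet Belgrade group and of 3-day rat 2. Actg2 fell by 2.20 ± 0.31 from bottom to top (SE, limma adjusted p = 1.08e-05).

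Myh11, the smooth muscle myosin heavy chain, had bottom levels of 14.02, 14.05, 16.81 and 15.44 in control rats, 14.29, 13.18, 13.21 and 13.82 in deficient rats and 14.32, 14.06 and 16.98 in repleted rats. In Belgrade rats Myh11 had bottom levels of 13.08, 13.32, 14.62 and 14.26 on a normal diet, 14.28, 13.30, 15.26 and 13.82 after 3 days of iron and 15.68, 14.17 and 14.44 after 6 days. The highest were again those of control rat 3 and repleted rat 3. At the top, Myh11 was at 13.40, 13.44, 13.49 and 12.86 in control rats, 12.87, 12.49, 12.61 and 12.91 in deficient rats and 12.95, 13 and 13.04 in repleted rats. Myh11 in Belgrade villus tops was at 13.07, 13.59, 12.25 and 12.29 on a normal diet, 12.47, 12.88, 12.61 and 12.35 after 3 days of iron and 13.14, 12.66 and 12.58 after 6 days. The top values spanned 1.34, against 3.90 at the bottom. Myh11 fell by 1.69 ± 0.23 from bottom to top (SE, limma adjusted p = 6.92e-06).

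Tagln, an actin-binding protein of smooth muscle, had bottom levels of 13.15, 13.43, 16.29 and 14.52 in control rats, 13.98, 12.98, 13.05 and 13.05 in deficient rats and 13.89, 13.84 and 16.63 in repleted rats. In Belgrade rats Tagln had bottom levels of 12.19, 12.50, 13.97 and 13.51 on a normal diet, 13.54, 12.70, 14.55 and 13.77 after 3 days of iron and 15.15, 13.38 and 13.98 after 6 days. Deficient rat 1 was above the other 3 deficient rats, which lay between 12.98 and 13.05. At the top, Tagln was at 12.73, 12.89, 12.39 and 11.87 in control rats, 12.59, 12.03, 12.45 and 12.36 in deficient rats and 12.38, 12.33 and 11.59 in repleted rats. Tagln in Belgrade villus tops was at 12.31, 12.26, 11.84 and 12.06 on a normal diet, 11.86, 12.13, 12.08 and 12.03 after 3 days of iron and 13.29, 12.10 and 12.47 after 6 days. Tagln fell by 1.72 ± 0.25 (SE, limma adjusted p = 1.43e-05), and the group ranges at the top overlapped.

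Des, the intermediate filament of muscle, had bottom levels of 12.27, 12.51, 16.17 and 13.64 in control rats, 12.77, 12.11, 12.06 and 12.41 in deficient rats and 12.78, 12.68 and 16.43 in repleted rats. In Belgrade rats Des had bottom levels of 11.35, 11.02, 13.48 and 12.58 on a normal diet, 12.92, 11.71, 14.84 and 11.99 after 3 days of iron and 15.08, 12.37 and 13.26 after 6 days. Its bottom range, 5.41, was the second widest of the 46 genes after that of Tpm2, 5.43. At the top, Des was at 12.09, 11.94, 12.32 and 11.98 in control rats, 12.11, 11.83, 11.82 and 11.70 in deficient rats and 12.05, 12 and 11.18 in repleted rats. Des in Belgrade villus tops was at 12.13, 12.01, 11.81 and 11.51 on a normal diet, 11.76, 12.27, 12.47 and 11.50 after 3 days of iron and 12.48, 11.72 and 12.38 after 6 days. All top values lay within 1.30 of each other, and Des fell by 1.25 ± 0.31 (SE, limma adjusted p = 0.00261).

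Among the other contractile genes Tpm2, a tropomyosin, fell by 1.90, Cnn1, the calponin of smooth muscle, by 1.67, Myl9, a regulatory myosin light chain, by 1.36, Synpo2, an actin-bundling protein, by 1.32 and Lmod1, an actin nucleator, by 0.90. Their bottom levels were highest in repleted rat 3, at 16.92 for Tpm2, 15.84 for Cnn1, 16.46 for Myl9, 12.89 for Lmod1 and 16.29 for Synpo2. For Synpo2 another of its 4 probe sets went the other way and passed (0.42, adjusted p = 0.0382), and with the mean of all its probe sets the difference was -0.30 and did not pass.

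Acta2, the alpha actin of vascular smooth muscle and of myofibroblasts, was the smooth muscle member that did not pass between top and bottom (-0.27 ± 0.23, SE, limma adjusted p = 0.344). Acta2 stood at the bottom at 11.73, 11.83, 15.74 and 12.37 in control rats, 11.75, 12.14, 11.69 and 12.14 in deficient rats and 12.60, 12.82 and 15.88 in repleted rats. In Belgrade rats Acta2 stood at the bottom at 11.57, 11.77, 12.69 and 11.98 on a normal diet, 12.26, 11.61, 13.72 and 11.87 after 3 days of iron and 13.85, 12.58 and 12.78 after 6 days. Control rat 3 and repleted rat 3 were far above the other bottom arrays, of which all but 3-day rat 3 and 6-day rat 1 were below 13. At the top, Acta2 was at 11.86, 12.01, 12.46 and 12.30 in control rats, 12.66, 12.69, 12.14 and 12.71 in deficient rats and 12.45, 12.77 and 12.89 in repleted rats. Belgrade rats had top values of Acta2 of 11.99, 12, 12.20 and 12.21 on a normal diet, 12.77, 12.30, 12.98 and 12.19 after 3 days of iron and 12.82, 12.53 and 12.96 after 6 days. The mean difference between top and bottom was -1.07 in controls and -1.06 in repleted rats, the groups with those 2 bottom arrays, and 0.62 in deficient rats. Over the 22 bottom arrays Actg2 correlated with Myh11 at r = 0.94, with Des at 0.96 and with Acta2 at 0.86, and over the 22 top arrays at 0.26, 0.71 and 0.07.

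Genes of smooth muscle are known to be switched on through the CArG box, the binding site of serum response factor. The promoter of Acta2 is shown because its CArG boxes are the classical example among the members. The 250 bases before the RefSeq start of Acta2 (build GRCr8, chr1:241172504-241172753, minus strand) are printed 5′ to 3′, with the matches described next in capitals.

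Acta2 upstream: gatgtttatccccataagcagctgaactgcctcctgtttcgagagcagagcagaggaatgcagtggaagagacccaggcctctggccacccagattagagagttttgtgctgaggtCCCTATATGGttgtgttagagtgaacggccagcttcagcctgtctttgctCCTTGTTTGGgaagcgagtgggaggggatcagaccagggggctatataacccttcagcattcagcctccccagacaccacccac

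Promoter windows of 250 bases before to 50 after the RefSeq start were found for 30 of the 46 members. The consensus box (CC and GG around 6 bases that are each A or T) was in 0 of 30 on either strand, beside 548 of 33469 windows of all genes (1.64%). A looser box, in which 1 of the 6 core bases may be C or G, was searched after the consensus had given no match. It was in 3 of 30 member windows (10%), beside 2712 of 33469 (8.10%), so the share among members was close to that of all genes. Only 6 of the 30 windows were of smooth muscle members, since none was found for Tagln, Myh11, Myl9 and Lmod1. Of these 6 windows, 1 had the looser box (16.7%), that of Acta2, which is too few to describe smooth muscle genes. In Acta2 the looser box matched CCCTATATGG at position -134 and CCTTGTTTGG at -84, counted from the RefSeq start. The other 2 member windows with the looser box were those of Timp3, with 2 matches, and Timp2, with 1. A match is a description of letters, and no match says nothing of the factor.

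**Figure D2:**
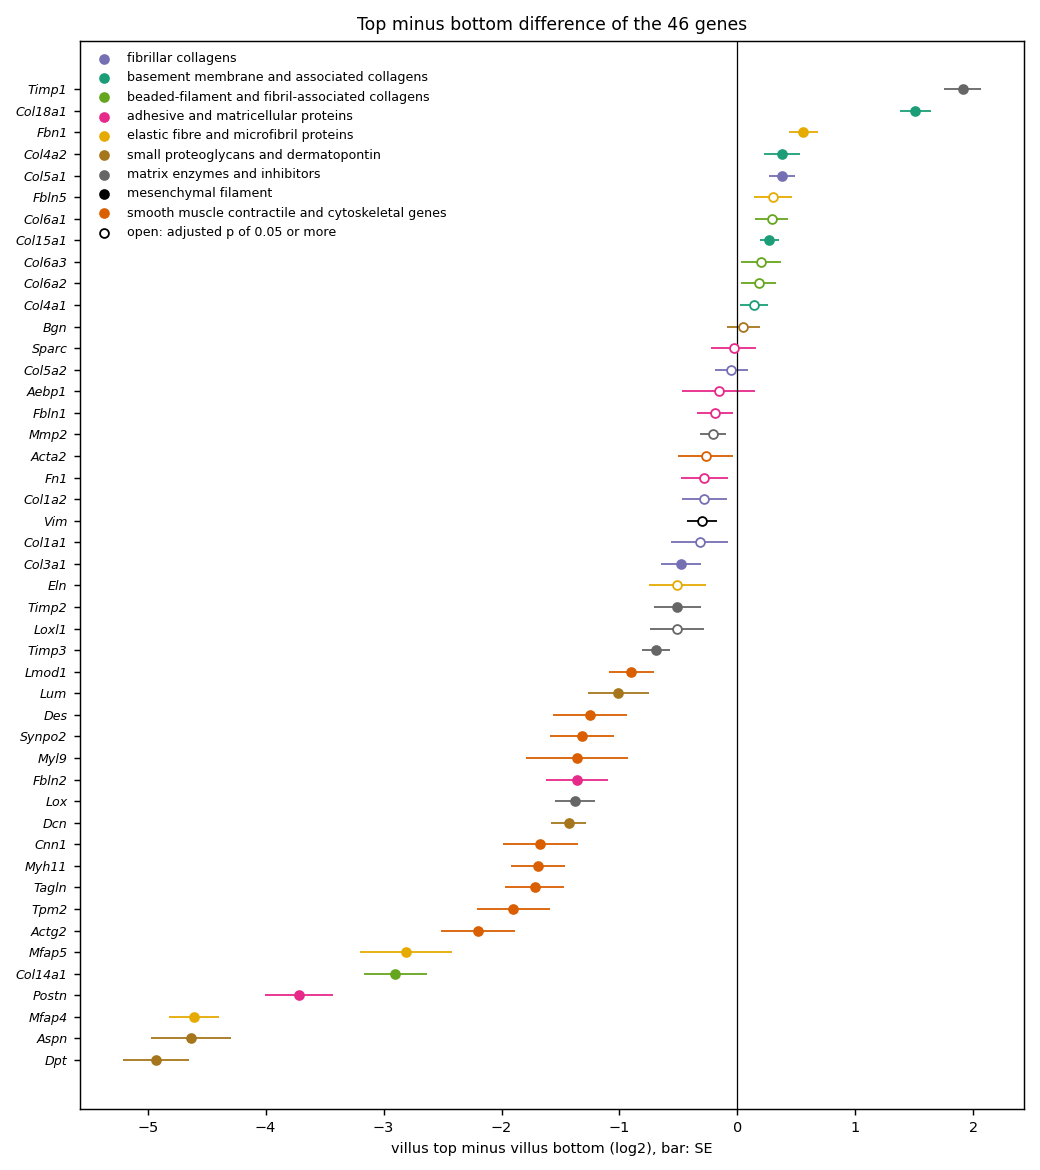
Villus top minus villus bottom difference in log2 level for the 46 genes, with the SE from limma as a bar, coloured by class, with open points for genes that did not pass. Dpt lies lowest at -4.93 and Timp1 highest at 1.91, and 9 of 10 smooth muscle genes are filled points below 0.

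Larger differences than those of muscle were seen in matrix genes. Dermatopontin (Dpt), which binds decorin and collagen, fell by 4.93 ± 0.28 from bottom to top (SE, limma adjusted p = 1.82e-10). Dpt had bottom levels of 13.78, 13.88, 15.59 and 15.40 in control rats, 14.07, 13.91, 13.53 and 14 in deficient rats and 13.91, 14.22 and 16.35 in repleted rats. In Belgrade rats Dpt had bottom levels of 13.62, 13.56, 15.23 and 14.42 on a normal diet, 13.77, 14.29, 14.46 and 14.61 after 3 days of iron and 15.20, 14.76 and 15.69 after 6 days. Repleted rat 3 was highest. At the top, Dpt was at 9.26, 8.85, 10.55 and 10.47 in control rats, 9.60, 9.89, 9.87 and 8.67 in deficient rats and 9.61, 9.12 and 7.77 in repleted rats. Dpt in Belgrade villus tops was at 9.47, 9.67, 11.72 and 9.95 on a normal diet, 9.27, 9.04, 10.69 and 8.92 after 3 days of iron and 10.67, 10.41 and 8.13 after 6 days. Every top value was below every bottom value.

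Aspn, asporin, a small leucine-rich proteoglycan, fell by 4.63 ± 0.34 (SE, limma adjusted p = 4.21e-09). Aspn had bottom levels of 11.13, 11.15, 13.20 and 13 in control rats, 14.10, 13.88, 11.22 and 10.32 in deficient rats and 11.80, 11.65 and 14.08 in repleted rats. In Belgrade rats Aspn had bottom levels of 11, 11.22, 12.73 and 12.80 on a normal diet, 11.36, 11.69, 11.93 and 13.92 after 3 days of iron and 12.91, 12.74 and 12.78 after 6 days. Deficient rat 1, repleted rat 3 and 3-day rat 4 were highest, and deficient rat 4 was lowest. At the top, Aspn was at 7.36, 7.64, 7.46 and 8.93 in control rats, 8.59, 5.80, 6.38 and 8.93 in deficient rats and 8.08, 6.22 and 10.28 in repleted rats. Aspn in Belgrade villus tops was at 7.67, 5.78, 8.44 and 8.31 on a normal diet, 7.28, 8.01, 7.82 and 8.44 after 3 days of iron and 8.92, 7.90 and 5.71 after 6 days. Only the top value of repleted rat 3 came near the lowest bottom value, that of deficient rat 4.

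Mfap4, a microfibril-associated glycoprotein, fell by 4.61 ± 0.21 (SE, limma adjusted p = 2.74e-11). Mfap4 had bottom levels of 11.32, 11.28, 13.13 and 12.62 in control rats, 10.46, 10.87, 11.13 and 11.32 in deficient rats and 11.32, 11.56 and 13.40 in repleted rats. In Belgrade rats Mfap4 had bottom levels of 11.25, 10.65, 12.21 and 10.70 on a normal diet, 10.70, 11.12, 11.17 and 10.95 after 3 days of iron and 12.58, 12.45 and 12.31 after 6 days. Control rat 3 and repleted rat 3 were highest. At the top, Mfap4 was at 6.36, 6.92, 7.79 and 6.78 in control rats, 5.92, 5.96, 6.03 and 6.44 in deficient rats and 6.46, 6.70 and 8.67 in repleted rats. Mfap4 in Belgrade villus tops was at 6.04, 5.96, 9.57 and 8.34 on a normal diet, 6.45, 9.20, 6.65 and 6.35 after 3 days of iron and 8.17, 6.52 and 5.98 after 6 days. Top and bottom did not overlap. The lowest top values lay close to the floor set by the 44 added to each intensity, which limits how well the size of the fall is known. The same holds for the lowest top values of Aspn, Postn and Mfap5.

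Postn, periostin, an adhesive protein that binds collagen, fell by 3.72 ± 0.29 (SE, limma adjusted p = 9.31e-09). Postn had bottom levels of 12.92, 13.21, 14.91 and 13.84 in control rats, 12.29, 12.82, 12.49 and 12.33 in deficient rats and 12.71, 12.81 and 14.88 in repleted rats. In Belgrade rats Postn had bottom levels of 12.69, 12.56, 12.96 and 13.43 on a normal diet, 12.53, 12.54, 12.53 and 12.98 after 3 days of iron and 13.81, 12.98 and 12.97 after 6 days. The 4 deficient rats were all below the 4 control rats. At the top, Postn was at 6.21, 7.04, 10.37 and 9.33 in control rats, 8.96, 8.82, 10.27 and 8.89 in deficient rats and 9.25, 9.78 and 6.28 in repleted rats. Postn in Belgrade villus tops was at 9.09, 8.69, 10.54 and 10.78 on a normal diet, 9.31, 9.08, 10.20 and 9.39 after 3 days of iron and 10.79, 10.47 and 10.07 after 6 days. Postn spanned 4.58 at the top, where control rats 1 and 2 and repleted rat 3 were lowest, and top and bottom did not overlap.

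Col14a1, a collagen on the surface of fibrils, fell by 2.90 ± 0.27 (SE, limma adjusted p = 8.44e-08). Col14a1 had bottom levels of 10.35, 10.26, 11.93 and 10.76 in control rats, 10.76, 10.62, 9.26 and 10.51 in deficient rats and 10.46, 10.02 and 12.98 in repleted rats. In Belgrade rats Col14a1 had bottom levels of 9.84, 9.91, 10.87 and 10.27 on a normal diet, 9.91, 9.44, 10.69 and 10.78 after 3 days of iron and 11.33, 10.44 and 11.06 after 6 days. Repleted rat 3 was highest by more than 1. At the top, Col14a1 was at 6.66, 6.19, 7.58 and 9.24 in control rats, 6.56, 9.12, 8.34 and 8.32 in deficient rats and 9.29, 7.79 and 8.23 in repleted rats. Col14a1 in Belgrade villus tops was at 7.81, 7.15, 7.48 and 7.48 on a normal diet, 7.33, 6.27, 8.52 and 7.04 after 3 days of iron and 6.99, 8.37 and 7.09 after 6 days. The highest top values, in repleted rat 1 and control rat 4, touched the lowest bottom value, that of deficient rat 3.

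Mfap5, another microfibril glycoprotein, fell by 2.81 ± 0.39 (SE, limma adjusted p = 9.98e-06). Mfap5 had bottom levels of 7.89, 9.70, 10.96 and 10.83 in control rats, 9.95, 10.38, 9.35 and 9.84 in deficient rats and 9.66, 7.09 and 12.27 in repleted rats. In Belgrade rats Mfap5 had bottom levels of 8.78, 9.07, 10.55 and 10.70 on a normal diet, 9.52, 9.24, 10.53 and 10.94 after 3 days of iron and 10.57, 10.06 and 10.16 after 6 days. The bottom values spanned 5.19, with repleted rat 2 and control rat 1 lowest and repleted rat 3 highest. At the top, Mfap5 was at 6.52, 6.74, 6.06 and 8.87 in control rats, 6.15, 6.13, 6.85 and 8.49 in deficient rats and 7.83, 7.02 and 5.99 in repleted rats. Mfap5 in Belgrade villus tops was at 8, 7.03, 6.06 and 7.83 on a normal diet, 6.51, 8.46, 7.49 and 6.40 after 3 days of iron and 6.42, 9.14 and 8.01 after 6 days. The segments overlapped in a few rats.

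Dcn, decorin, which coats collagen fibrils, fell by 1.43 ± 0.15 (SE, limma adjusted p = 2.78e-07). Dcn had bottom levels of 14.99, 15.05, 16.53 and 16.06 in control rats, 14.78, 14.98, 14.55 and 14.32 in deficient rats and 14.87, 14.72 and 16.69 in repleted rats. In Belgrade rats Dcn had bottom levels of 14.58, 14.67, 15.25 and 14.87 on a normal diet, 15.07, 14.85, 15.03 and 15.64 after 3 days of iron and 15.68, 15.02 and 15.34 after 6 days. All deficient rats were below all control rats at the bottom. At the top, Dcn was at 13.82, 13.80, 14.05 and 13.89 in control rats, 13.94, 13.96, 14.35 and 13.44 in deficient rats and 13.65, 13.67 and 13.19 in repleted rats. Dcn in Belgrade villus tops was at 13.86, 13.68, 13.41 and 14.03 on a normal diet, 13.96, 13.92, 13.75 and 13.77 after 3 days of iron and 14.12, 13.55 and 13.92 after 6 days. Deficient and control rats overlapped at the top, and the repleted rats were below all control rats.

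Lum, lumican, a related proteoglycan, fell by 1.01 ± 0.26 (SE, limma adjusted p = 0.00362). Lum had bottom levels of 12.36, 12.46, 15.08 and 14.11 in control rats, 13.36, 13.38, 12.54 and 11.98 in deficient rats and 12.70, 12.60 and 15.67 in repleted rats. In Belgrade rats Lum had bottom levels of 11.97, 11.99, 13.06 and 12.92 on a normal diet, 13.24, 11.93, 13.49 and 13.36 after 3 days of iron and 13.67, 12.57 and 12.98 after 6 days. At r = -0.91 over the bottom arrays, Lum followed the enterocyte markers in reverse, and control rat 3 and repleted rat 3 were highest. At the top, Lum was at 12.36, 12.03, 11.84 and 11.60 in control rats, 12.76, 12.89, 12.57 and 12.58 in deficient rats and 12.22, 12.74 and 11.50 in repleted rats. Lum in Belgrade villus tops was at 12.54, 12.63, 11.65 and 12.63 on a normal diet, 11.60, 11.90, 11.40 and 12.43 after 3 days of iron and 12.50, 11.87 and 12.11 after 6 days. Here the order of diets was turned, with all deficient rats above all control rats (0.82 ± 0.30, SE, limma adjusted p = 0.214), which did not pass. Bgn, biglycan, differed by 0.05 between segments and did not pass.

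Fibrillar collagens differed little between segments. Col3a1, type III collagen, fell by 0.48 ± 0.17 (SE, limma adjusted p = 0.0242) and Col5a1, a type V chain, rose by 0.38 ± 0.11 (SE, adjusted p = 0.00793), while Col1a1 (-0.32), Col1a2 (-0.28) and Col5a2 (-0.05) did not pass. Col3a1 no longer passed with the values as deposited (-0.24), with median centring (-0.12), without control rat 3 (-0.43) or without Belgrade rat 3 (-0.42), nor Col5a1 with the values as deposited (0.15).

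Col3a1 had bottom levels of 14.93, 15.10, 16.47 and 16.11 in control rats, 15.03, 15.48, 14.46 and 14.57 in deficient rats and 14.59, 15.13 and 16.24 in repleted rats. In Belgrade rats Col3a1 had bottom levels of 14.77, 14.81, 15.87 and 15.13 on a normal diet, 14.32, 14.79, 15.46 and 15.31 after 3 days of iron and 16.36, 15.70 and 16.16 after 6 days. Control rat 3 and 6-day rat 1 were highest. At the top, Col3a1 was at 15.11, 15.14, 14.99 and 15.04 in control rats, 15.26, 15.22, 14.17 and 14.95 in deficient rats and 15.11, 15.31 and 14.09 in repleted rats. Col3a1 in Belgrade villus tops was at 15.16, 15.24, 14.79 and 14.82 on a normal diet, 14.42, 15.28, 14.77 and 14.39 after 3 days of iron and 15.15, 14.96 and 15.04 after 6 days. The top values spanned 1.22 and the bottom values 2.15.

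Col1a1, a chain of type I collagen, had bottom levels of 12.26, 12.10, 15.31 and 13.49 in control rats, 11.05, 12.57, 11.64 and 12.32 in deficient rats and 12.16, 12.86 and 13.44 in repleted rats. In Belgrade rats Col1a1 had bottom levels of 12.13, 12.03, 13.81 and 12.10 on a normal diet, 11.21, 11.79, 14.03 and 12.63 after 3 days of iron and 15.18, 13.47 and 15.07 after 6 days. Control rat 3 was highest, followed by 6-day rats 1 and 3. At the top, Col1a1 was at 13.13, 13.27, 13.58 and 12.29 in control rats, 12.60, 12.52, 11.85 and 13.44 in deficient rats and 13.50, 12.94 and 11.72 in repleted rats. Col1a1 in Belgrade villus tops was at 12.86, 12.79, 12.52 and 11.60 on a normal diet, 12.30, 12.80, 13.18 and 11.88 after 3 days of iron and 13.63, 12.54 and 12.62 after 6 days. The 2 chains of type I collagen, Col1a1 and Col1a2, correlated at r = 0.89 over the bottom arrays and 0.41 over the top arrays, and Col1a1 correlated with Actg2 at 0.63 and 0.49.

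Basement membrane and associated collagens went the other way. Col18a1, the precursor of endostatin, rose from bottom to top by 1.51 ± 0.13 (SE, limma adjusted p = 2.83e-08). Col4a2 rose by 0.38 ± 0.15 (SE, adjusted p = 0.0397) and Col15a1 by 0.27 ± 0.08 (SE, adjusted p = 0.0112), while Col4a1 did not pass (0.14, adjusted p = 0.343). Col18a1 was between 9.92 and 11.79 in the bottom arrays and between 11.65 and 13.23 in the top arrays, and its group means were higher at the top by 1.09 to 1.84. The calls of Col4a2 (0.20) and Col15a1 (0.09) ended with the values as deposited, and so did they with median centring (0.32 and 0.21). Col4a2 also lost its call without any 1 of 10 counted samples, with 0.29 to 0.38. These samples were control 1-2, deficient 1 and 4, repleted 1, Belgrade 1-2, 3-day rats 1, 2 and 3, and 6-day rats 1 and 2.

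Col4a1, a type IV collagen chain, had bottom levels of 13.08, 12.44, 14.07 and 13.24 in control rats, 12.21, 11.87, 12.33 and 12.47 in deficient rats and 12.29, 12.68 and 14.16 in repleted rats. In Belgrade rats Col4a1 had bottom levels of 12.47, 12.49, 12.95 and 12.28 on a normal diet, 12.10, 12.67, 13.13 and 12.31 after 3 days of iron and 13.84, 13.10 and 13.54 after 6 days. Control rat 3 and repleted rat 3 were highest. At the top, Col4a1 was at 13.41, 13.33, 13.36 and 12.99 in control rats, 12.63, 12.33, 12.71 and 13.15 in deficient rats and 13.46, 13 and 13.26 in repleted rats. Col4a1 in Belgrade villus tops was at 12.93, 13.01, 12.90 and 12.33 on a normal diet, 12.56, 13.15, 13.24 and 12.36 after 3 days of iron and 13.74, 13.05 and 13.17 after 6 days. Unlike type I collagen, the type IV chains Col4a1 and Col4a2 correlated as closely over the top arrays (r = 0.87) as over the bottom ones (r = 0.90). Whether the correlations of the chain pairs differ was not tested.

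These chains are encoded head to head and are known to share a promoter. In RefSeq (build GRCr8) the start of Col4a2 on the minus strand and that of Col4a1 on the plus strand leave 76 bases between them. The stretch at chr16:84885501-84885616, read on the plus strand towards Col4a1, is shown for this shared control region, with the bases between the starts in capitals and 20 bases on each side in lower case.

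Col4a2-Col4a1 interval: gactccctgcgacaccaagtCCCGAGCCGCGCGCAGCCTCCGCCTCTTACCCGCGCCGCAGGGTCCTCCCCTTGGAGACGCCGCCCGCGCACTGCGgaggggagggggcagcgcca

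Type VI collagen forms beaded filaments around cells. Col6a1 (0.29), Col6a2 (0.18) and Col6a3 (0.20) did not pass between top and bottom. The chains correlated over the bottom arrays at r = 0.84 (Col6a1 with Col6a2) and 0.96 (Col6a1 with Col6a3), and over the top arrays at 0.71 and 0.58.

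Among elastic fibre genes Fbn1, fibrillin, rose towards the top by 0.56 ± 0.12 (SE, limma adjusted p = 0.00103), while Eln, elastin, differed by -0.51 and Fbln5 by 0.30, which did not pass. Eln had bottom levels of 9.80, 9.47, 11.24 and 10.14 in control rats, 9.75, 9.97, 9.27 and 9.08 in deficient rats and 10.12, 8.55 and 10.34 in repleted rats. In Belgrade rats Eln had bottom levels of 9.04, 9.52, 9.67 and 9.08 on a normal diet, 9.60, 8.28, 10.54 and 10.18 after 3 days of iron and 11.29, 10.19 and 10.72 after 6 days. The spread at the bottom was within 3.01. At the top, Eln was at 9.16, 7.58, 8.98 and 9.38 in control rats, 9.61, 9.82, 8.40 and 9.03 in deficient rats and 8.18, 10.11 and 12.62 in repleted rats. Eln in Belgrade villus tops was at 8.23, 9.84, 9.58 and 8.20 on a normal diet, 9.98, 9.57, 9.68 and 8.14 after 3 days of iron and 10.01, 8.88 and 9.49 after 6 days. The highest value of Eln was at the top in repleted rat 3. At the bottom the 6-day rats were above all deficient rats and all Belgrade rats on a normal diet.

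Adhesive proteins other than Postn differed less. Fbln2, fibulin 2, fell by 1.36 ± 0.26 (SE, limma adjusted p = 0.000245), while Fn1, fibronectin, differed by -0.28, Fbln1 by -0.19 and Sparc by -0.03, and none of these passed. Aebp1 differed by -0.16 and did not pass, but its dimmer probe set was higher at the top and passed (0.71, limma adjusted p = 0.00495). Fn1 had bottom levels of 11.19, 11.36, 14.13 and 12.09 in control rats, 11.86, 11.43, 11.48 and 11.87 in deficient rats and 11.92, 11.59 and 14.38 in repleted rats. In Belgrade rats Fn1 had bottom levels of 11.21, 11.03, 12.45 and 11.92 on a normal diet, 11.69, 11.70, 12.31 and 12 after 3 days of iron and 13.26, 12.45 and 12.55 after 6 days. Only control rat 3 and repleted rat 3 were above 14. At the top, Fn1 was at 12.10, 12.25, 12 and 11.30 in control rats, 12.15, 11.97, 11.47 and 12.16 in deficient rats and 11.86, 11.61 and 11.58 in repleted rats. Fn1 in Belgrade villus tops was at 12.18, 12.17, 11.58 and 11.91 on a normal diet, 11.67, 12.06, 11.76 and 12.11 after 3 days of iron and 12.46, 12.40 and 12.28 after 6 days. The top values spanned 1.15.

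Enzymes and inhibitors split. Timp1, an inhibitor of matrix metalloproteinases that many stimuli induce, rose from bottom to top by 1.91 ± 0.16 (SE, limma adjusted p = 2.93e-08), the largest rise among the 46 genes. Its group means were higher at the top by 0.76 in controls, which did not pass in that group (adjusted p = 0.226), and by 1.90 to 2.66 in the other groups. Timp3, an inhibitor bound to the matrix, fell by 0.69 ± 0.12 (SE, adjusted p = 7.79e-05), and Lox, which cross-links collagen and elastin, by 1.38 ± 0.17 (SE, adjusted p = 2.55e-06). Timp2 fell by 0.51 ± 0.20 (SE, adjusted p = 0.0363), but not with the mean of its probe sets (-0.12). The call of Timp2 also ended without any 1 of 9 counted samples, with -0.50 to -0.46. These samples were control 3 and 4, deficient 2, Belgrade 1-2 and 3, 3-day rats 3 and 4, and 6-day rats 1 and 3. Loxl1 (-0.51), Mmp2, a gelatinase (-0.21), and the mesenchymal filament gene Vim (-0.30) did not pass.

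The difference between segments was also read within each group, and more members passed as lower than as higher at the top in all but the deficient rats. Over all probe sets more passed as lower than as higher in every group, 3338 against 3082 in controls and 4217 against 3608 in deficient rats. In controls 1 member passed as higher and 14 as lower at the top, beside 24.2% of probe sets. In repleted rats these counts were 2 and 17 (beside 32.6%), in Belgrade rats on a normal diet 2 and 6 (16.7%), after 3 days of iron 3 and 11 (25.4%) and after 6 days 2 and 8 (22.7%). In deficient rats and in each Belgrade group, the share of members past the test was close to that of the array. In deficient rats 8 passed as higher and 7 as lower (29.5%), with a median of 0.11, against -0.93 in controls and -0.80 in repleted rats. The difference between deficient and control rats in this respect is tested as an interaction further on.

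In the crypt arrays the smooth muscle genes were higher in the lower crypt, which lies next to the muscularis mucosae. These are 2 arrays of 1 rat, so the differences have no replicate check. All 10 smooth muscle members were higher in the lower crypt, with a median difference of 1.2. Actg2 was at 14.93 in the lower and 12.45 in the upper crypt, Des at 12.88 and 11.28, and Acta2 at 12.38 and 12.29. Some genes low at the villus top behaved alike, with Mfap4 at 11.06 and 7.01, Mfap5 at 10.38 and 7.46, Aspn at 13.28 and 10.83 and Dpt at 13.91 and 12.37. Others low at the villus top differed little or the other way between lower and upper crypt, namely Lox (-0.15), Timp2 (-0.25), Fbln2 (0.05) and Lmod1 (0.08). Col18a1 was lower in the lower crypt, at 10.77 against 12.05. Fibrillar collagens had a median difference of 0.17. Over all members 34 of 46 were higher in the lower crypt, 16 by more than 1, and 1 was lower by more than 1.

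**Figure D3:**
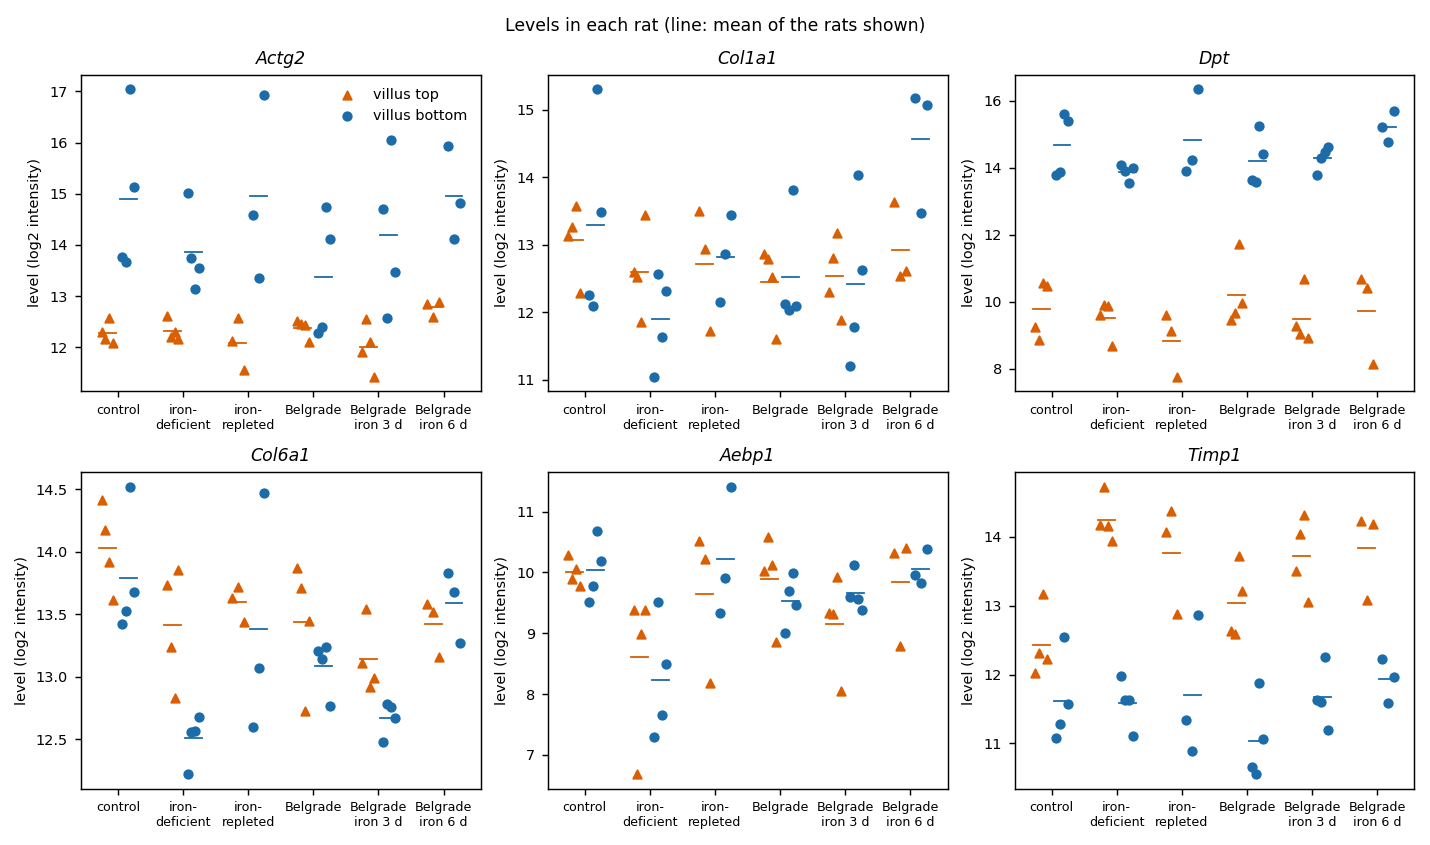
Log2 level of Actg2, Col1a1, Dpt, Col6a1, Aebp1 and Timp1 in each rat by group, with triangles for villus top, circles for villus bottom and a line for the mean of the rats shown. Actg2 and Dpt are lower at the top in all groups, and Aebp1 is low in iron-deficient rats. Col6a1 is low in iron-deficient rats (mean of both segments 12.96) and in Belgrade rats after 3 days of iron (12.91). Timp1 at the top is at 13.94 to 14.73 in iron-deficient rats. It reaches 14.37 in repleted rats, and 14.32 and 14.23 in Belgrade rats after 3 and 6 days of iron.

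The deficient group was set against the Wistar controls to see what a low iron diet with bleeding changed. In each rat's mean of top and bottom, 45 of the 46 genes were lower in deficient rats, with a median difference of -0.60, against -0.02 over all probe sets. With the values as deposited both medians were lower, at -0.61 and -0.14. Of these, 3 fell in limma, Aebp1, Col6a2 and Col6a1, beside 0.404% of all probe sets called (0.132% as lower). At an unadjusted p under 0.05 there were 21 of 46 members and 3750 of 26517 probe sets. For 15 members all deficient rats were below all control rats, beside 5.89% of all probe sets (values to 2 decimals). They were the 3 genes called, Col6a3, Col5a1, Col4a1, Col4a2, Col15a1, Sparc, Fbn1, Mmp2, Timp3, Vim, Myh11 and Synpo2. Xist, an RNA made in female cells, was high in 1 of 4 control rats and in 0 of 4 deficient rats, and with it as covariate none of the 3 genes passed (Aebp1 -1.60, Col6a2 -1.33 and Col6a1 -0.93, adjusted p of 0.061 to 0.0642). Their calls also ended with median centring (-1.64, -1.26 and -0.78) and without the trend of the spread with level.

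Aebp1, a collagen-binding protein of fibroblasts and smooth muscle, had rat means of 9.90, 9.84, 10.37 and 9.99 in control rats, 8.35, 8.09, 8.31 and 8.94 in deficient rats and 9.92, 10.07 and 9.79 in repleted rats. In Belgrade rats Aebp1 had means of 9.51, 10.14, 10.06 and 9.16 on a normal diet, 9.46, 9.71, 9.75 and 8.72 after 3 days of iron and 10.13, 9.31 and 10.40 after 6 days. All deficient rats were below all rats of the control, repleted and normal-diet Belgrade groups. Aebp1 fell by 1.65 ± 0.33 (SE, limma adjusted p = 0.035). Its mean was 10.08 ± 0.26 (SD, n = 3) in controls and 8.42 ± 0.36 (SD, n = 4) in deficient rats. Aebp1 had bottom levels of 9.52, 9.77, 10.68 and 10.19 in control rats, 7.30, 9.51, 7.65 and 8.49 in deficient rats and 9.33, 9.91 and 11.41 in repleted rats. Its bottom levels in Belgrade rats were 9, 9.69, 9.99 and 9.47 on a normal diet, 9.59, 10.12, 9.57 and 9.39 after 3 days of iron and 9.95, 9.83 and 10.39 after 6 days. At the top, Aebp1 was at 10.29, 9.90, 10.06 and 9.78 in control rats, 9.39, 6.68, 8.98 and 9.39 in deficient rats and 10.52, 10.22 and 8.18 in repleted rats. Aebp1 in Belgrade villus tops was at 10.02, 10.58, 10.13 and 8.85 on a normal diet, 9.34, 9.31, 9.92 and 8.05 after 3 days of iron and 10.32, 8.79 and 10.41 after 6 days. Deficient rats were below controls in both segments, and deficient rat 2 was far below the other 3 at the top. The dimmer of its 2 probe sets differed by -0.56 and did not pass (adjusted p = 0.536), and with their mean the difference was -1.11 and did not pass.

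Col6a1 had rat means of 13.92, 13.85, 14.22 and 13.65 in control rats, 12.97, 12.90, 12.70 and 13.26 in deficient rats and 13.12, 13.40 and 13.95 in repleted rats. In Belgrade rats Col6a1 had means of 13.54, 13.42, 12.99 and 13.11 on a normal diet, 12.79, 13.16, 12.84 and 12.83 after 3 days of iron and 13.71, 13.60 and 13.21 after 6 days. Deficient rats lay below controls without overlap. Col6a1 fell by 0.96 ± 0.20 (SE, limma adjusted p = 0.0353). Its mean was 13.92 ± 0.29 (SD, n = 3) in controls and 12.96 ± 0.23 (SD, n = 4) in deficient rats. Col6a1 had bottom levels of 13.42, 13.53, 14.52 and 13.68 in control rats, 12.22, 12.56, 12.57 and 12.68 in deficient rats and 12.60, 13.07 and 14.47 in repleted rats. Its bottom levels in Belgrade rats were 13.21, 13.14, 13.24 and 12.77 on a normal diet, 12.48, 12.78, 12.76 and 12.67 after 3 days of iron and 13.83, 13.68 and 13.27 after 6 days. At the top, Col6a1 was at 14.41, 14.17, 13.92 and 13.61 in control rats, 13.73, 13.24, 12.83 and 13.85 in deficient rats and 13.63, 13.72 and 13.44 in repleted rats. Col6a1 in Belgrade villus tops was at 13.87, 13.71, 12.73 and 13.45 on a normal diet, 13.11, 13.54, 12.92 and 12.99 after 3 days of iron and 13.58, 13.52 and 13.16 after 6 days. The gap between deficient and control rats was clear at the bottom, while the top values overlapped.

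Col6a2, the second chain of type VI collagen, had rat means of 12.56, 12.60, 13.06 and 12.47 in control rats, 10.97, 11.51, 11.07 and 11.99 in deficient rats and 11.80, 12.16 and 11.60 in repleted rats. In Belgrade rats Col6a2 had means of 12, 12.13, 12.22 and 11.35 on a normal diet, 11.44, 11.59, 12 and 11.12 after 3 days of iron and 12.70, 12.59 and 12.38 after 6 days. Control rats were again above deficient rats. Col6a2 fell by 1.32 ± 0.26 (SE, limma adjusted p = 0.035). Its mean was 12.71 ± 0.31 (SD, n = 3) in controls and 11.38 ± 0.46 (SD, n = 4) in deficient rats. Col6a2 had bottom levels of 12.05, 12.11, 13.17 and 12.56 in control rats, 10.18, 11.18, 10.74 and 11.32 in deficient rats and 11.34, 11.88 and 12.29 in repleted rats. Its bottom levels in Belgrade rats were 11.64, 11.89, 12.62 and 11.56 on a normal diet, 11.24, 11.44, 12.22 and 10.99 after 3 days of iron and 12.78, 12.46 and 12.64 after 6 days. At the top, Col6a2 was at 13.08, 13.10, 12.96 and 12.38 in control rats, 11.77, 11.83, 11.39 and 12.65 in deficient rats and 12.26, 12.43 and 10.92 in repleted rats. Col6a2 in Belgrade villus tops was at 12.36, 12.37, 11.82 and 11.14 on a normal diet, 11.64, 11.74, 11.78 and 11.26 after 3 days of iron and 12.61, 12.71 and 12.11 after 6 days. At the top only deficient rat 4 reached the control range. The dimmer probe set of Col6a2 differed by -1.31 and did not pass (adjusted p = 0.256). Col6a3, the third chain, differed by -1.0 ± 0.27 (SE, adjusted p = 0.0864). The dimmer probe set of Col6a3 went the other way and did not pass (0.19, limma adjusted p = 0.865).

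Sparc, osteonectin, which binds collagen, differed by -1.21 ± 0.34 (SE, limma adjusted p = 0.1). Sparc had bottom levels of 12.16, 12.19, 14.81 and 12.44 in control rats, 11.78, 11.65, 11.19 and 11.40 in deficient rats and 11.31, 11.97 and 12.73 in repleted rats. In Belgrade rats Sparc had bottom levels of 12.43, 12.32, 12.44 and 12.04 on a normal diet, 11.60, 11.03, 13.05 and 12.11 after 3 days of iron and 13.29, 12.16 and 12.82 after 6 days. Control rat 3 was above all others. At the top, Sparc was at 13.31, 13.25, 13.28 and 12.05 in control rats, 12, 12.27, 11.83 and 12.21 in deficient rats and 12.05, 12.25 and 10.62 in repleted rats. Sparc in Belgrade villus tops was at 13.04, 13.08, 11.93 and 12.15 on a normal diet, 12.19, 12.22, 13.08 and 11.90 after 3 days of iron and 12.37, 11.87 and 12.20 after 6 days. Control rats 1 to 3 were high at the top as well, and control rat 4 lay among the deficient rats. Of the other members, Myh11 differed by -1.17 (adjusted p = 0.111), Mfap4 by -1.19 (adjusted p = 0.335), Col1a1 by -1.09 (adjusted p = 0.241), Des by -0.98 (adjusted p = 0.355), Col4a1 by -0.84 (adjusted p = 0.128) and Lum by -0.11 (adjusted p = 0.907). Some values depended on the probe set. Col1a2 differed by -0.43 and Dpt by -0.79, but their dimmer probe sets by -1.20 (limma adjusted p = 0.0536) and -1.39 (adjusted p = 0.0555). Dimmer probe sets of Aspn (0.38), Timp3 (0.27), Mmp2 (0.11) and Tpm2 (0.02) were higher in deficient rats, without passing. The medians by class were -0.57 for fibrillar collagens, -0.68 for basement membrane collagens, -0.98 for the type VI and fibril-associated ones, -0.46 for adhesive proteins, -0.31 for elastic fibre genes, -0.30 for proteoglycans, -0.55 for enzymes and inhibitors and -0.71 for smooth muscle genes. The 22 other smooth muscle genes had a median of -0.40 (18 lower), 28 other matrix genes -0.43 (24 lower) and 11 fibroblast and pericyte markers -0.38, with 0 called in each list, while red blood cell markers had a median of 1.28.

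In smooth muscle level the bottom arrays of the control rats differed more from each other than those of the deficient rats. The smooth muscle members had mean levels of 12.45, 12.58, 15.80 and 13.61 in control rats, 13.11, 12.24, 12.13 and 12.49 in deficient rats and 13.11, 12.89 and 16.12 in repleted rats in the bottom arrays. Without control rat 3, 38 of 46 members were lower, with a median of -0.39, and 0 passed (12 at an unadjusted p under 0.05). Acta2 (0.15), Fn1 (0.09) and Lum (0.18) then turned to higher in deficient rats. No member passed either without control sample 1-2, control rat 4, deficient rat 1, 2 or 3, or 6-day rat 1, although the differences of the 3 genes then stayed at -1.76 to -1.54 for Aebp1, -1.09 to -0.87 for Col6a1 and -1.44 to -1.19 for Col6a2. Without repleted rat 3, which enters only through the shared spread, 6 passed (the 3 genes, Col6a3, Mmp2 and Myh11), beside 1.78% of all probe sets.

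With the mean level of the 22 other smooth muscle genes as a covariate, the difference between deficient and control rats moved towards 0 or past it for muscle genes such as Myh11, Actg2 and Acta2. It went from -1.17 to -0.64 for Myh11, from -0.70 to -0.12 for Actg2 and from -0.52 to 0.16 for Acta2. For Aebp1 it was -1.56 (adjusted p = 0.0894), for Col6a2 -1.30 (adjusted p = 0.0742) and for Col6a1 -0.77 (adjusted p = 0.0902), so that none passed. The median over the 46 genes was -0.33. With nerve and glia markers as covariate 5 members passed, the 3 genes, Col6a3 (-0.90) and Myh11 (-1.02), beside 0.739% of all probe sets. The mean of the 22 other smooth muscle genes follows the smooth muscle members closely over the bottom arrays. Muscle genes would move towards 0 with that covariate for this reason alone. The fit therefore cannot tell section content from a diet effect on muscle genes. The part of section content in each difference was not tested beyond these fits.

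**Figure D4:**
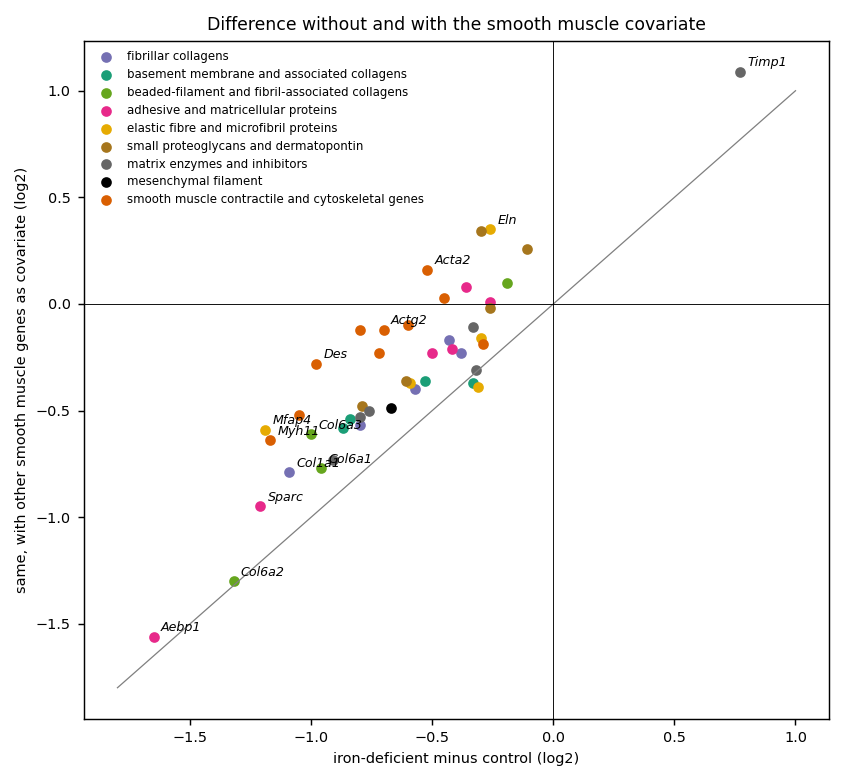
Iron-deficient minus control difference in log2 level of the 46 genes without a covariate (x axis) and with the mean level of 22 other smooth muscle genes as covariate (y axis), coloured by class, with a grey line where both are equal. Aebp1 (-1.65 and -1.56) and Col6a2 (-1.32 and -1.30) lie close to the line, while Actg2 (-0.70 and -0.12) and Acta2 (-0.52 and 0.16) lie above it. The covariate itself follows the smooth muscle members closely over the bottom arrays.

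Taken by segment, the bottom arrays held most of the difference. At the bottom all 46 genes were lower in deficient rats, with a median of -1.11, while 0 passed in limma (26 members and 3449 of 26517 probe sets at an unadjusted p under 0.05, 0% of probe sets called). The differences were -1.94 ± 0.49 for Aebp1, -1.75 ± 0.34 for Col6a2 and -1.38 ± 0.31 for Col6a1 (SE, adjusted p = 0.137, 0.1 and 0.118). Without control rat 3 the median was -0.64, with 43 of 46 lower. Without repleted rat 3, 10 genes passed as lower (Col15a1, Col6a1, Col6a2, Col6a3, Postn, Aebp1, Dcn, Mmp2, Timp3 and Vim), beside 1.24% of all probe sets called in that fit. Without both rats 1 passed, Col6a1 (-1.07 ± 0.20, SE, adjusted p = 0.0338), beside 0.117%. At the bottom the 22 other smooth muscle genes had a median of -1.23, nerve and glia markers -0.66 and enterocyte markers 0.83.

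**Figure D5:**
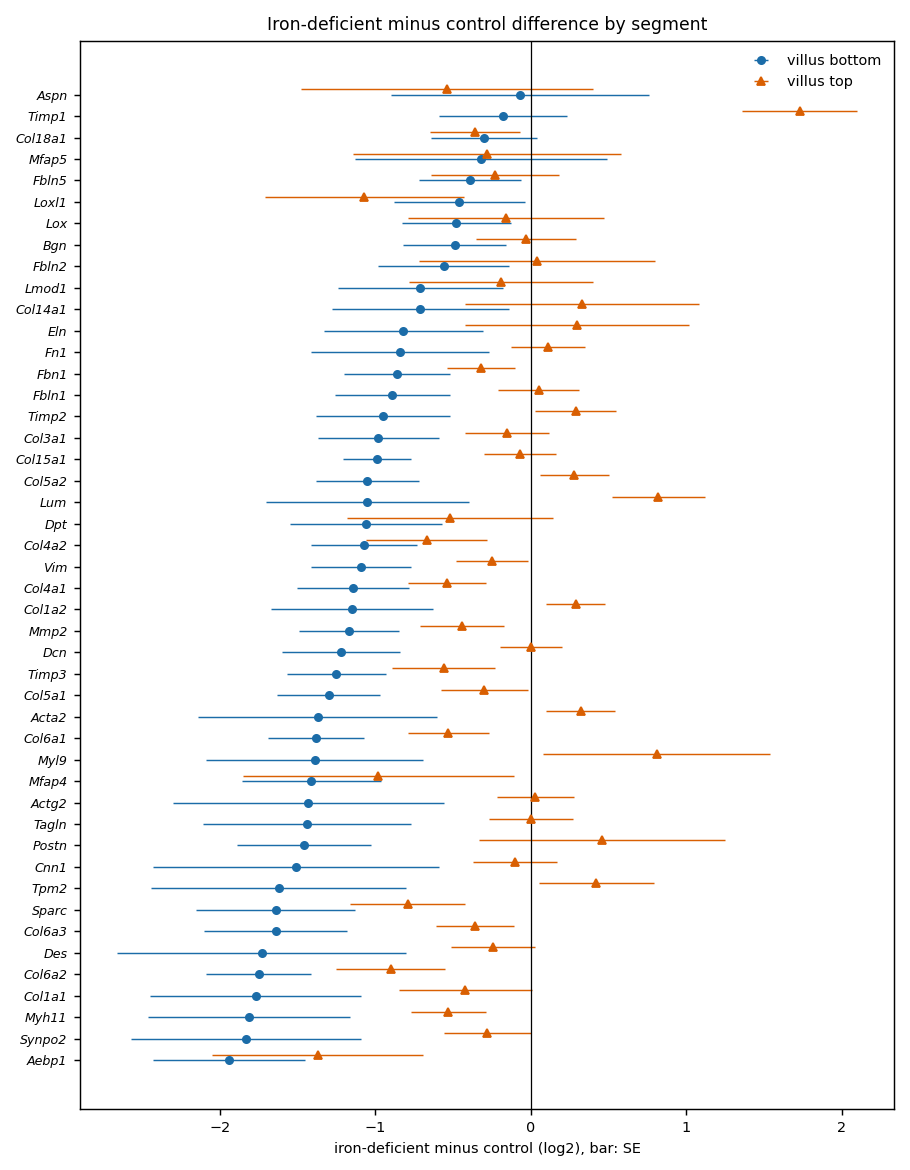
Iron-deficient minus control difference in log2 level of the 46 genes in the villus bottom arrays (circles) and the villus top arrays (triangles), with the SE from limma as a bar. All circles lie below 0, the triangles lie on both sides of 0, and Timp1 at the top stands apart at 1.73.

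At the top 30 of 46 genes were lower, with a median of -0.21, and the smooth muscle members had a median of -0.05. Only Timp1 passed there, as higher, beside 0.977% of all probe sets called (0.460% as higher), and 7 members had an unadjusted p under 0.05. Timp1 at the top was at 12.02, 12.32, 13.17 and 12.23 in control rats, 14.17, 14.73, 14.16 and 13.94 in deficient rats and 14.07, 14.37 and 12.88 in repleted rats. Timp1 in Belgrade villus tops was at 12.64, 12.59, 13.72 and 13.21 on a normal diet, 13.51, 14.04, 14.32 and 13.05 after 3 days of iron and 14.23, 13.09 and 14.19 after 6 days. All deficient rats were above all control rats. Timp1 rose by 1.73 ± 0.37 (SE, limma adjusted p = 0.0248). Its mean was 12.52 ± 0.57 (SD, n = 3) in controls and 14.25 ± 0.34 (SD, n = 4) in deficient rats. Timp1 had bottom levels of 11.08, 11.28, 12.54 and 11.57 in control rats, 11.98, 11.63, 11.63 and 11.11 in deficient rats and 11.34, 10.89 and 12.87 in repleted rats. Its bottom levels in Belgrade rats were 10.65, 10.55, 11.87 and 11.07 on a normal diet, 11.63, 11.60, 12.25 and 11.20 after 3 days of iron and 12.23, 11.59 and 11.97 after 6 days. At the bottom the deficient and control rats overlapped, with a difference of -0.18 (adjusted p = 0.899). In the mean of both segments Timp1 was the 1 gene of 46 with a higher value in deficient rats (0.77 ± 0.30, SE, adjusted p = 0.232). The call at the top ended with median centring (1.88), without control sample 1-2 (1.55), control rat 4 (1.58), deficient rat 1 (1.75) or deficient rat 2 (1.57). Over 22 alternatives the difference was 1.55 to 2.05 and the adjusted p 0.00405 to 0.163.

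Whether the diet difference itself differed between segments was tested as an interaction. The difference was higher at the top for 43 of 46 genes, with a median of 0.93, and 0 passed in limma (8 members and 2396 of 26517 probe sets at an unadjusted p under 0.05, 0% of probe sets called). Timp1 had an interaction of 1.90 ± 0.56 (SE, adjusted p = 0.313), which passed without repleted rat 3 (adjusted p = 0.0242), beside 0.339% of all probe sets called in that fit. Without control rat 3 the median was 0.54.

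Repleted rats were compared with deficient rats for the effect of 3 days of iron. Of 46 genes 43 were higher after repletion, with a median of 0.45, but 0 passed in limma (12 members and 3385 of 26517 probe sets at an unadjusted p under 0.05, 0% of probe sets called). Aebp1 differed by 1.51 ± 0.33 (SE, adjusted p = 0.151), Loxl1 by 1.05 (adjusted p = 0.285), Acta2 by 0.99 (adjusted p = 0.348) and Vim by 0.63 (adjusted p = 0.216). In 7 genes all repleted rats were above all deficient rats (Col4a1, Col15a1, Aebp1, Mfap4, Lox, Vim and Acta2), beside 3.42% of all probe sets. Without repleted rat 3 the median was 0.19 and 36 of 46 were higher, and with the other smooth muscle genes as covariate the median was 0.01. Without deficient rat 4, Aebp1 passed (1.68, adjusted p = 0.0153), beside 1.92% of all probe sets. This comparison and that of deficient with control rats share the deficient samples. Against controls, repleted rats had a median of -0.16 (32 lower), with 0 of 46 past the test (4 at an unadjusted p under 0.05) beside 0.0679% of probe sets. Sparc (-1.18, adjusted p = 0.128) and Col6a2 (-0.85, adjusted p = 0.145) were the 2 with the smallest p. The median was 0.13 without control rat 3 and -0.43 without repleted rat 3.

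The genotype was tested by setting Belgrade rats on a normal diet against the Wistar controls. Of 46 genes 43 were lower, with a median of -0.47, and 0 passed in limma (14 members and 1592 of 26517 probe sets at an unadjusted p under 0.05), beside 0.0113% of probe sets. The differences were -0.72 ± 0.21 for Col6a1, -0.83 ± 0.27 for Col6a2, -1.08 ± 0.38 for Synpo2, -1.02 ± 0.36 for Myh11 and -0.62 ± 0.21 for Vim (SE), with adjusted p of 0.486 to 0.696. In 11 genes all Belgrade rats were below all controls, among them Col6a1, Col6a2, Col6a3, Myh11 and Synpo2, beside 2.87% of all probe sets. Without control rat 3 the median was -0.25. The control samples are the same as in the comparison with deficient rats. Against deficient rats the median was 0.13, with 0 past the test (4 members at an unadjusted p under 0.05, 0% of probe sets called), and Aebp1 differed by 1.26 (adjusted p = 1).

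Iron feeding of Belgrade rats was compared with the normal diet. After 3 days the median was -0.03, with 0 of 46 past the test and 0 at an unadjusted p under 0.05 (730 of 26517 probe sets, 0% called). After 6 days 43 of 46 genes were higher, with a median of 0.39, and 0 passed (8 members and 1120 of 26517 probe sets at an unadjusted p under 0.05, 0% called). Col1a1 differed by 1.26 ± 0.46, Col1a2 by 0.85 ± 0.27, Col4a1 by 0.75 ± 0.27 and Fn1 by 0.71 ± 0.32 (SE, adjusted p = 1 for each). In 9 genes all 6-day rats were above all Belgrade rats on a normal diet (Col1a2, Col5a2, Col4a1, Col18a1, Col6a2, Fn1, Fbln5, Vim and Acta2), beside 4.02% of all probe sets. Without 6-day rat 1, whose bottom array had the highest smooth muscle level among the Belgrade rats, the median was 0.24. Xist was high in 3 of 3 rats after 6 days, but in 1 of 4 on a normal diet and 1 of 4 after 3 days. The groups of the 6-day comparison thus differed in Xist as well as in iron feeding. The count of members past the test stayed at 0 in all 33 alternatives, the fit with Xist as covariate among them. The part of Xist in each single difference is not given here.

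Other genes of matrix and muscle were read from lists beside the members. Between top and bottom 54.2% of all probe sets passed (25.5% higher, 28.8% lower). Beside this share, 14 of 22 other smooth muscle genes fell and 2 rose. Among those that fell were Mylk, the myosin light chain kinase (-1.05), and Flna, filamin A (-1.02). Of 28 other matrix genes 10 rose and 9 fell, with Tgfbi (1.25) and Mgp, matrix Gla protein (-2.93), in opposite directions. Of 15 matrix-processing genes 5 rose and 0 fell, and of 9 endothelial markers 4 rose, Kdr, a receptor of vascular growth factor, by 0.79. Of 10 genes of TGF-beta signalling, a pathway that drives collagen synthesis, 6 rose, among them the inhibitor Smad7 (2.25), Smad3 (1.07) and the receptor Tgfbr1 (0.66). Of 11 fibroblast and pericyte markers 4 rose and 1 fell, while Pdgfra differed by -0.06 and did not pass. For matrix processing, endothelium, and fibroblast and pericyte markers, the share past the test was below that of the array. In deficient against control rats 0 genes of these 6 lists passed, and the median was -0.13 for TGF-beta signalling, -0.19 for matrix processing and -0.18 for endothelium.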

How the data were processed

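Each of 46 Affymetrix rat arrays gave 1 column of intensity values for 31099 probe sets, deposited by the authors. Per the labels' protocols, RNA was extracted with Tri Reagent and labelled by the standard Affymetrix procedure. The algorithm behind the intensities is not given in the sources used here. A trimmed mean of 2501 on 42 arrays and 2876 on 4 shows that the deposited values were scaled. After removal of 57 control probe sets, log2(intensity + 44) was quantile normalized over the 44 villus arrays, and the 2 crypt arrays were mapped to the same distribution. The pseudocount, the 10th percentile, understates differences of dim genes. Probe sets above their array's 40th percentile on 3 or more villus arrays were kept (26517).

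Rats whose difference had a robust SD under 0.2 in both segments over 5464 bright probe sets (0.138 to 0.173, against 0.223 to 0.727 for other pairs, 30 pairs in all) were averaged. The labels give the numbered arrays of a group as separate rats, and p-values measure the spread between them. The number of arrays limits the precision. Group means of the mean of top and bottom, and the difference between them within each rat, were fitted over all 6 groups with limma 3.58.1 (R 4.3.3, lmFit and eBayes with trend), two-sided, with Benjamini-Hochberg adjustment over all kept probe sets and a threshold of 0.05. Single segments and the interaction were fitted alike. In simulated data for the deficient against control comparison over 26517 probe sets, log2 changes of 1, 2, 3 and -2 were recovered in 30%, 70%, 98% and 68% of cases. Rat numbers were not used as pairs, since over the kept probe sets in 0 of 15 pairs of groups every same-numbered pair of rats correlated above 0.1.

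The members and the other lists were chosen with earlier results of these data known. Genes given with values in every rat were Col1a1, Col3a1, Col6a1, Col4a1, Fn1, Sparc, Dcn, Lum, Aebp1, Eln, Timp1, Acta2, Actg2, Myh11, Tagln and Des, plus up to 8 called members with the largest change in each comparison. Alternatives were other pseudocounts and normalizations, no filter, no trend, the mean of a gene's probe sets, all 22 rats with and without a replicate block, 3 covariates and leaving out each sample. Promoter sequences are from RefSeq (GRCr8), and figures were drawn with matplotlib 3.10.9.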

Additional observations from a re-analysis of the deposited data

Results flagged for a closer look

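In 64 sets of 4 values that were tested, 4 had 1 rat far from the other 3, beside about 1 in 20 by chance for a single set. The sets were the genes from Col1a1 to Des listed above, in each segment of the deficient and the 3-day rats. They come from the same rats and are not independent, so the share by chance is only a rough guide. Acta2 at the villus top was 12.14 in deficient rat 3 and 12.66 to 12.71 in the other deficient rats. Aebp1 at the top was 6.68 in deficient rat 2 and 8.98 to 9.39 in the others. Lum at the bottom was 11.93 in 3-day rat 2 and 13.24 to 13.49 in the others of that group. Tagln at the bottom was 13.98 in deficient rat 1 and 12.98 to 13.05 in the others.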

How the results depend on the processing

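Between top and bottom the count of 28 genes stayed within 1.5 times under all 30 alternatives, and within 26 to 32 without each sample. For deficient against control rats 16 of 33 alternatives kept the count of 3 within 1.5 times. It was 0 with median centring, without the trend, with Xist or the other smooth muscle genes as covariate and without control rat 3 and repleted rat 3 together, an alternative chosen after seeing the data. It was 1 with the mean of all probe sets, 5 with nerve and glia markers as covariate, 8 with all 22 rats counted separately and 13 with these rats and a replicate block. Without each sample it was 0 to 6. Both fits with all 22 rats count the near-identical rats as separate samples. The share of all probe sets called in them is not given here, so their counts are not read as a result about the members. The replicate block gave 2 genes for repleted against control rats (Col6a2 and Sparc) in place of 0. In 3 of 15 pairs of groups all same-numbered rats correlated above 0.1 over bright probe sets (control with repleted rats, control with Belgrade rats on a normal diet, and 3-day with 6-day rats), and in 0 of 15 over all kept ones, so the numbers were not used as pairs, and whether they pair the rats of those 3 is undecided. At the top the count of 1 was 0 with median centring and 0 to 1 without each sample. At the bottom the count of 0 was 1 without both rats 3 and 0 to 10 without each sample. Repletion gave 0 to 1 and the interaction 0 to 1 without each sample. The deficient against control difference turned to higher for 8 genes with the other smooth muscle genes as covariate, namely Acta2 (0.16), Eln (0.35), Fn1 (0.08), Lum (0.26), Aspn (0.34), Col14a1 (0.10), Lmod1 (0.03) and Fbln2 (0.01), and for Aspn (0.06) with Xist. It did so for Acta2 (0.15), Fn1 (0.09) and Lum (0.18) without control rat 3, alone or with repleted rat 3. Lum also turned with median centring (0.08), all 22 rats (0.03), these with the replicate block (0.03), nerve and glia markers (0.02) and without deficient rat 4 (0.04). Without each sample in turn it ran from -0.98 to 0.15 for Acta2, -0.60 to 0.09 for Fn1 and -0.40 to 0.18 for Lum. The crypt median was 0.46 with the values as deposited, against 0.36. The cause of these changes was not tested.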

Other observations

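Lists outside muscle and matrix were also read along the villus, where 54.2% of all probe sets passed (25.5% higher, 28.8% lower). Of 9 crypt and cell cycle markers all 9 fell from bottom to top, among them Mki67 (-3.41), and of 8 enterocyte markers 7 rose. Of 17 enteric nerve and glia markers 11 fell and 1 rose, with the neuropeptide gene Vip at -5.71. Of 11 exocrine pancreas markers 4 fell, of 9 lymphocyte and plasma cell markers 4 rose and 4 fell, and of 3 red blood cell markers 1 rose. For pancreas and red blood cell markers the share past the test was below that of the array. In deficient against control rats 1 of 9 lymphocyte and plasma cell markers fell (median -0.59), and none passed among crypt (median -0.24), enterocyte (0.03), nerve and glia (-0.18), pancreas (-0.72) and red blood cell markers.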
